A study of Mus musculus with 24 samples.

Results

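The 10 genes described here mark the lipid-associated and inflammatory macrophages of the fatty liver. They are Gpnmb, Trem2, Cd9, Cd68, Spp1, Lpl, Lgals3, Il1b, Tnf and Tyrobp, taken by symbol from the 41388 genes counted in each library, and all 10 were found. Expression was measured by bulk RNA sequencing of liver from male mice on a C57BL/6J background. WT mice were littermates homozygous for a floxed Lpin1 allele without Cre. Adn-Lpin1-/- mice carried the same floxed alleles with a Cre driven by the adiponectin promoter, so that lipin 1, a phosphatidic acid phosphohydrolase, was deleted in adipocytes. Diets began at 8 weeks of age. The LFD gave 10% of its kcal as fat and the HFD 60%, for 16 weeks by the labels (the study's methods give 5 weeks), and mice went without food for 4 hours before sacrifice. The 4 groups, WT LFD, Adn-Lpin1-/- LFD, WT HFD and Adn-Lpin1-/- HFD, each held 5 libraries of single mice. Since the deletion is in adipocytes, the level of Lpin1 in liver does not check the labels.

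Macrophages that take up lipid from dying or overloaded cells switch on a shared set of genes for lipid sensing, lysosomal digestion and tissue repair. TREM2 is a surface receptor for lipids and apoptotic cells, and it signals through the adaptor TYROBP (also called DAP12). In the fatty liver such cells gather around lipid-laden hepatocytes and scars, where they are marked by GPNMB, CD9, SPP1 and LPL, while IL-1β and TNF are the classic inflammatory products of activated macrophages. A bulk library cannot tell fewer cells of a type from less RNA per cell, and this holds for every value below.

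Gpnmb (ENSMUSG00000029816, chromosome 6 of GRCm38, 49036518 to 49058182, plus strand) encodes a transmembrane glycoprotein of phagosomes and lysosomes. Trem2 (ENSMUSG00000023992, chromosome 17 of GRCm38, 48346401 to 48354147, plus strand) encodes the lipid receptor, Tyrobp (ENSMUSG00000030579, chromosome 7 of GRCm38, 30413788 to 30417577, plus strand) its signaling adaptor, and Cd68 (ENSMUSG00000018774, chromosome 11 of GRCm38, 69664213 to 69666153, minus strand) a lysosomal sialomucin used as a general macrophage marker. Cd9 (ENSMUSG00000030342, chromosome 6 of GRCm38, 125460266 to 125494791, minus strand) encodes a tetraspanin of the cell membrane. Lgals3 (ENSMUSG00000050335, chromosome 14 of GRCm38, 47367751 to 47386160, plus strand) encodes galectin 3, a lectin that binds galactose-containing glycans. Spp1 (ENSMUSG00000029304, chromosome 5 of GRCm38, 104435118 to 104441050, plus strand) encodes osteopontin, a secreted integrin ligand. Lpl (ENSMUSG00000015568, chromosome 8 of GRCm38, 68880491 to 68907448, plus strand) encodes lipoprotein lipase, which releases fatty acids from triglyceride-rich lipoproteins. Il1b (ENSMUSG00000027398, chromosome 2 of GRCm38, 129364570 to 129371139, minus strand) and Tnf (ENSMUSG00000024401, chromosome 17 of GRCm38, 35199381 to 35202007, minus strand) encode the cytokines IL-1β and TNF.

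RefSeq's promoter windows on GRCm38.p6, from 250 bases before to 50 bases after RefSeq's start of each gene, held 9 windows for 8 of the 10 genes, with 2 for Spp1. RefSeq's start lay 6109 bases inside the gene start given above for Lgals3 and 1074 bases inside it for the second Spp1 window, and within 31 bases of it for the other 7. None was listed for Lpl or Tyrobp. Short motifs were searched on both strands. The AP-1 motif TGANTCA was found in 3 of the 9 windows, those of Gpnmb, Cd68 and Trem2, against 7.81% of the 32851 windows in the table. The ETS motif AGGAAG was found in 5 of 9 (35.4% of all windows) and the TATA motif TATAAA in 3 of 9 (13.6%). The E-box CACGTG (7.15% of all windows) was found in none of the 9. A narrow form of the kappa B site of NF-kB (1.47%) was also found in none. Wider forms of that site were not searched, so their absence from these windows is not shown. A match is a description of the letters only.

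The windows of the 3 genes with an AP-1 match are shown for that shared match, and that of Il1b for its TATA match close to the start. Each is written 5′ to 3′ on the strand of its gene, and the capitals mark motif matches. Gpnmb (chr6:49036268-49036567, plus strand) has its AP-1 match 8 bases after the start. Cd68 (chr11:69666121-69666420, minus strand) has matches 149 and 24 bases before the start. Trem2 (chr17:48346151-48346450, plus strand) has the AP-1 match 9 bases before the start and, 41 bases before it, an ETS match on the other strand. Il1b (chr2:129371090-129371389, minus strand) has the TATA match 31 bases before the start.
Gpnmb: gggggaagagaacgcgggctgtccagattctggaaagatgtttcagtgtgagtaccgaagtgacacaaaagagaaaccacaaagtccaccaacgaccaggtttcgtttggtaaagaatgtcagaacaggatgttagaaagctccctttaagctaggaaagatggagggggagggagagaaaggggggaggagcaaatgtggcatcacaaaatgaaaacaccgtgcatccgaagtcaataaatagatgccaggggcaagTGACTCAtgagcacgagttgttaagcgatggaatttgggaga
Cd68: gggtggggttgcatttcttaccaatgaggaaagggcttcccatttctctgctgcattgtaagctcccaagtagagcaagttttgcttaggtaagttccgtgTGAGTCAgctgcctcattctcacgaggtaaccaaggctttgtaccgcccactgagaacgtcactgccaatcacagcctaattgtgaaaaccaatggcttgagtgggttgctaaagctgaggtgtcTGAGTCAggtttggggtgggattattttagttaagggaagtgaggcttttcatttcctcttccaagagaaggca
Trem2: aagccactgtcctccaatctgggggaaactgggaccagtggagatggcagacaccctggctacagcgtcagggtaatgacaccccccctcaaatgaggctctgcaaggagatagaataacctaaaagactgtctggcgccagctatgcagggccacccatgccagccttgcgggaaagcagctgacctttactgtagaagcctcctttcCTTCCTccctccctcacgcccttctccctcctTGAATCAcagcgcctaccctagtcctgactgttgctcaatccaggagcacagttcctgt
Il1b: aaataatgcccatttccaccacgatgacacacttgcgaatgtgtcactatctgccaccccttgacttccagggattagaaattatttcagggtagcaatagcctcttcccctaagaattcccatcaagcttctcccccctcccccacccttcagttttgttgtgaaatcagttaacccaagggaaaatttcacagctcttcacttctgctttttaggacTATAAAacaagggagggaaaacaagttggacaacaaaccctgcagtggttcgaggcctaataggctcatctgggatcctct

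Total counts per mouse ranged from 36260187 to 81072794. They did not overlap between WT LFD, with a highest total of 45999456, and Adn-Lpin1-/- LFD, with a lowest total of 51095146. Values are given as CPM, a gene's reads scaled to a common library size with edgeR's TMM factors, and group values as the mean ± SD of 5 mice. The 13052 genes that exceeded 1 CPM in 4 or more of the 20 libraries were tested in 1 fit by edgeR's quasi-likelihood test, and a gene was called where the Benjamini-Hochberg adjusted p was at or below 0.05. Of the 10 genes, 9 were tested, since Tnf had over 1 CPM in 1 library. Gpnmb passed through 6 Adn-Lpin1-/- libraries and 0 WT libraries, Trem2 through 4 and 0, and Il1b through 8 and 1, so these 3 genes could enter the test only where Adn-Lpin1-/- mice were high. Single genes were also compared by a two-sided exact permutation test of log2(CPM + 0.1) over every arrangement of 5 mice against 5, whose smallest p is 0.00794.

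The 10 genes differed widely in level. On RPKM, which divides the scaled CPM by gene length in kilobases, the mean over the 20 mice was highest for Spp1 (19.8), Tyrobp (13.5), Cd68 (7.90) and Cd9 (5.83). Lgals3 (2.41) and Lpl (2.07) were intermediate. Il1b (0.570), Gpnmb (0.172), Trem2 (0.140) and Tnf (0.125) were the lowest on RPKM, and their reads per mouse did not exceed 232.

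**Figure D1:**
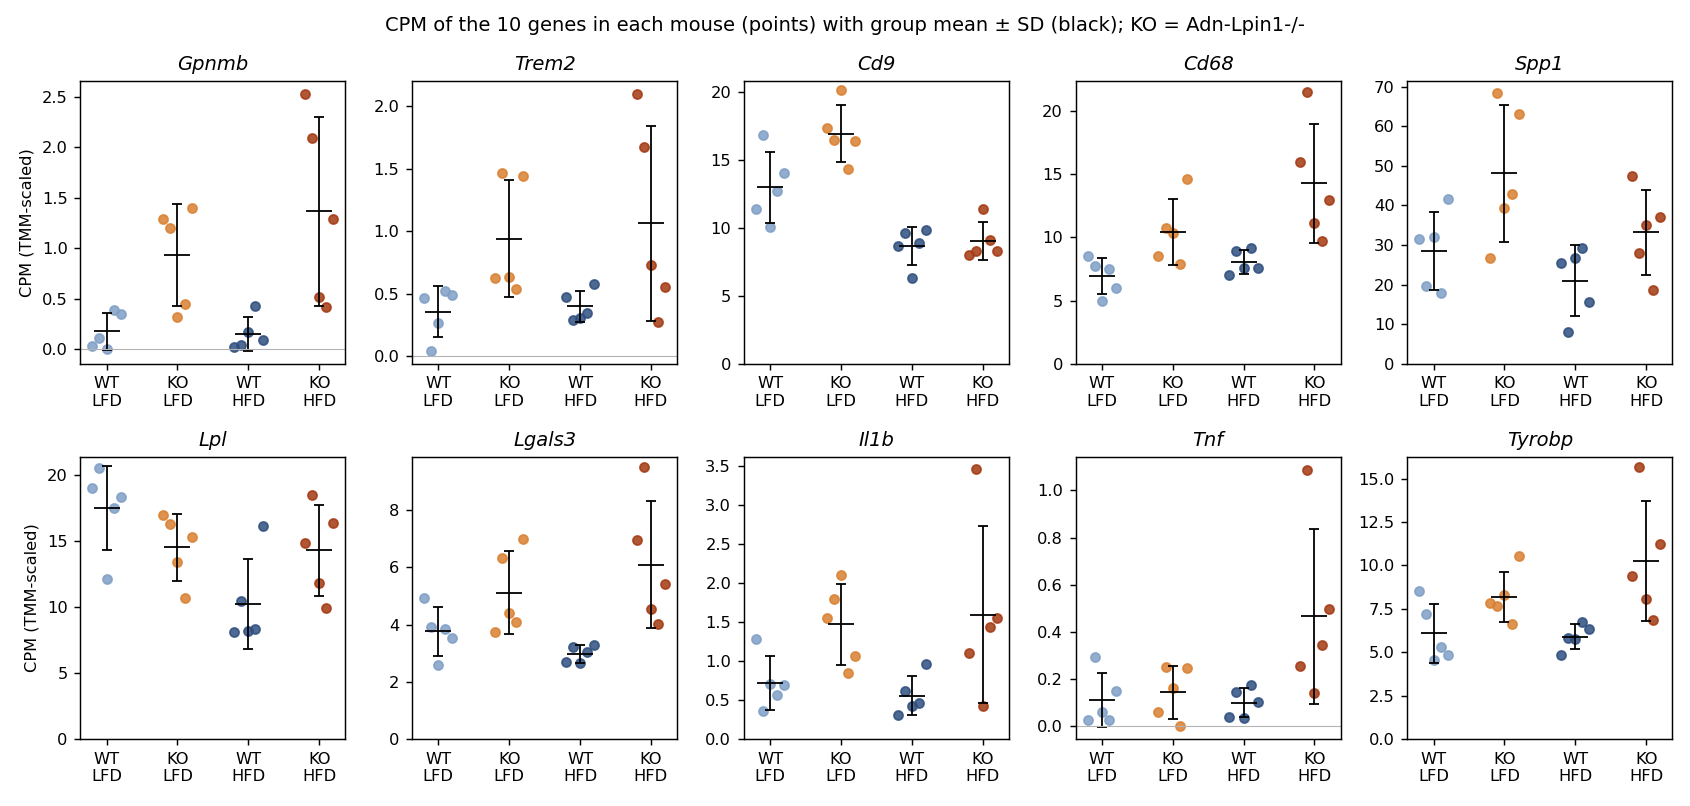
CPM of each of the 10 genes (vertical axes, linear, a scale of its own for each gene) in the 4 groups (horizontal axes, KO standing for Adn-Lpin1-/-). Each point is a mouse, and the black marks are the group mean ± SD of 5 mice; Gpnmb in the Adn-Lpin1-/- HFD mice reached 2.53 CPM against a highest WT value of 0.423, while Cd9 was lower in every HFD mouse than in any LFD mouse of the same genotype.

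The comparison of Adn-Lpin1-/- with WT mice asks what the loss of lipin 1 in fat does to the liver. On the LFD, Gpnmb rose in Adn-Lpin1-/- livers and was the 1 gene called of the 9 tested, where 14.4% of all tested genes were called and 6.27% were called higher. On the HFD, 5 of the 9 were called, all higher in Adn-Lpin1-/-, where 18.6% of all genes were called and 9.87% were called higher. These were Gpnmb, Lgals3, Cd68, Tyrobp and Il1b. The median log2 fold change of the 9 genes was 0.59 on the LFD and 0.82 on the HFD. Of these, Gpnmb, Trem2 and Il1b were tested only through their high Adn-Lpin1-/- libraries. For the other 6 it was 0.43 and 0.73, against a median over all tested genes of 0.01 and 0.00. Of the 6 genes that did not depend on Adn-Lpin1-/- libraries to be tested (Cd9, Cd68, Spp1, Lpl, Lgals3 and Tyrobp), the LFD fit called 0 by edgeR's test (4 had an unadjusted p under 0.05, and DESeq2 called 1) and the HFD fit called 3. With no limit on low counts, 1 of the 10 was called on the LFD, where 2.21% of 28454 genes were called higher, and 5 of the 10 on the HFD, where 3.46% were.

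Gpnmb had the largest fold change of the 10 on either diet. In WT LFD its level was 0.0257, 0.112, 0, 0.391 and 0.345 CPM in mice 1 to 5 (0 to 15 reads), and in Adn-Lpin1-/- LFD it was 1.29, 1.196, 0.319, 0.442 and 1.39 CPM (20 to 85 reads). Mice 1, 2 and 5 of Adn-Lpin1-/- LFD lay above every WT mouse, mouse 4 lay just above them, and mouse 3 fell inside the WT range. The log2 fold change was 2.37 (SE 0.75, adjusted p = 0.0395 from edgeR's test; exact permutation p = 0.0238), which corresponds to 5.17-fold. This call was lost in 6 of the 20 fits that each left out 1 mouse, namely with WT LFD mice 1, 2 or 3 or Adn-Lpin1-/- LFD mice 1, 2 or 5 removed (adjusted p between 0.0675 and 0.0909 from edgeR's test).

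In WT HFD, Gpnmb was 0.0182, 0.0364, 0.173, 0.423 and 0.0856 CPM (1 to 22 reads), and in Adn-Lpin1-/- HFD it was 2.53, 2.09, 0.516, 0.414 and 1.29 CPM (24 to 158 reads). Mice 1, 2 and 5 of Adn-Lpin1-/- HFD held most of the signal, mouse 3 was above all WT mice, and mouse 4 was just under the highest WT mouse. The log2 difference was 3.21 (SE 0.73, adjusted p = 0.00573 from edgeR's test; exact permutation p = 0.0159), or 9.26-fold, and the call held whichever of the 20 mice was removed. By group mean the order was Adn-Lpin1-/- HFD (1.37 ± 0.936 CPM), Adn-Lpin1-/- LFD (0.928 ± 0.506), WT LFD (0.175 ± 0.182) and WT HFD (0.147 ± 0.166). Neither the first pair nor the last pair of this order was separated by its spread.

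Trem2 had a positive genotype difference of the same size on both diets. Its level was 0.463, 0.0450, 0.268, 0.521 and 0.493 CPM in WT LFD mice 1 to 5 (2 to 20 reads) and 0.625, 1.47, 0.638, 0.538 and 1.44 CPM in Adn-Lpin1-/- LFD (28 to 88 reads). Every Adn-Lpin1-/- LFD mouse was above every WT LFD mouse, although mouse 4 exceeded the highest WT mouse only narrowly. Trem2 was the 1 gene of the 10 that did not overlap on the LFD, where 3.89% of all tested genes were higher without overlap. Since its 4 libraries over 1 CPM were all Adn-Lpin1-/-, nothing is read from that share for Trem2. The exact permutation p was 0.00794, and the log2 fold change of 1.40 (SE 0.53) missed the threshold (adjusted p = 0.0848 from edgeR's test).

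On the HFD, Trem2 was 0.474, 0.291, 0.311, 0.346 and 0.582 CPM in WT and 2.10, 1.67, 0.727, 0.276 and 0.558 CPM in Adn-Lpin1-/-. Mice 1 and 2 of Adn-Lpin1-/- HFD were far above WT, mouse 3 was moderately above, mouse 5 lay within the WT range, and mouse 4 lay just under it. The log2 fold change was 1.40 (SE 0.50, adjusted p = 0.0577 from edgeR's test; exact permutation p = 0.103). DESeq2's Wald test called Trem2 on both diets (LFD adjusted p = 0.0452, HFD adjusted p = 0.0315), and edgeR's test called it on the HFD with WT LFD mouse 2 or Adn-Lpin1-/- HFD mouse 4 or 5 removed (adjusted p = 0.0397, 0.0202 and 0.0425). It was not called in 13 other fits that left out a mouse. With any of its 4 Adn-Lpin1-/- libraries over 1 CPM removed, Trem2 fell under the limit on low counts and was not tested.

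Tyrobp, the adaptor through which TREM2 signals, was higher in Adn-Lpin1-/- than in WT mice on the HFD. It was 4.83, 5.84, 5.76, 6.76 and 6.33 CPM in WT HFD mice 1 to 5 and 9.39, 15.7, 8.09, 6.89 and 11.2 CPM in Adn-Lpin1-/- HFD. The groups did not overlap, and mouse 2 of Adn-Lpin1-/- HFD was the highest. The log2 difference was 0.80 (SE 0.20, adjusted p = 0.0105 from edgeR's test), or 1.74-fold. On the LFD, Tyrobp was 8.54, 7.20, 4.59, 5.29 and 4.86 CPM in WT and 7.82, 7.66, 8.27, 6.65 and 10.6 CPM in Adn-Lpin1-/-, and mice 1 and 2 of WT LFD overlapped with the Adn-Lpin1-/- mice. The log2 LFD difference of 0.43 (SE 0.20) did not pass (adjusted p = 0.168 from edgeR's test).

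Cd68 was higher in Adn-Lpin1-/- mice on the HFD as well. Its level was 7.06, 8.95, 7.61, 9.18 and 7.55 CPM in WT HFD mice 1 to 5 and 16.0, 21.6, 11.2, 9.75 and 12.9 CPM in Adn-Lpin1-/- HFD, and the lowest Adn-Lpin1-/- mouse was above the highest WT mouse. The log2 fold change was 0.82 (SE 0.20, adjusted p = 0.00790 from edgeR's test), or 1.77-fold. On the LFD it was 8.52, 7.76, 4.94, 7.50 and 5.99 CPM in WT and 8.54, 10.8, 10.3, 7.92 and 14.6 CPM in Adn-Lpin1-/-. Mouse 1 of WT LFD was above mouse 4 of Adn-Lpin1-/- LFD and almost level with its mouse 1. The log2 LFD difference was 0.59 (SE 0.20, adjusted p = 0.0539 from edgeR's test; exact permutation p = 0.0159). That value lay close to the threshold, and Cd68 was called on the LFD when WT LFD mouse 1, Adn-Lpin1-/- LFD mouse 1 or 4, or Adn-Lpin1-/- HFD mouse 2 or 4 was removed (adjusted p between 0.0285 and 0.0476 from edgeR's test).

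Lgals3 was higher in Adn-Lpin1-/- mice on the HFD too. Its level was 2.68, 3.22, 2.65, 3.04 and 3.29 CPM in WT HFD mice 1 to 5, a narrow range, and 6.95, 9.499, 4.53, 4.02 and 5.41 CPM in Adn-Lpin1-/- HFD, with no overlap. The log2 fold change was 1.03 (SE 0.22, adjusted p = 0.00417 from edgeR's test), or 2.04-fold. Cd68, Lgals3 and Tyrobp were the 3 genes of the 10 without overlap between the genotypes on the HFD, where 5.78% of all tested genes were higher without overlap, and all 3 were called in each fit that left out a mouse. On the LFD, Lgals3 was 4.94, 3.91, 2.59, 3.83 and 3.53 CPM in WT and 3.75, 6.32, 4.40, 4.08 and 6.98 CPM in Adn-Lpin1-/-, and the difference of 0.44 (SE 0.22) did not pass (adjusted p = 0.199 from edgeR's test).

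Among the inflammatory products, Il1b was higher in Adn-Lpin1-/- mice on the HFD and Tnf had too few reads for the main test. Il1b was 0.310, 0.619, 0.432, 0.462 and 0.959 CPM in WT HFD mice 1 to 5 (17 to 56 reads) and 1.10, 3.46, 0.434, 1.43 and 1.55 CPM in Adn-Lpin1-/- HFD (37 to 232 reads). Mice 1, 2, 4 and 5 of Adn-Lpin1-/- HFD were above every WT HFD mouse, and mouse 3 fell inside the WT range. The log2 fold change was 1.51 (SE 0.44, adjusted p = 0.0230 from edgeR's test), or 2.85-fold. It fell to 1.01 without mouse 2 of Adn-Lpin1-/- HFD, where the call was lost (adjusted p = 0.104 from edgeR's test). The call was also lost without mouse 1 of WT HFD (0.0563), without mouse 3 of WT HFD (0.0530) and in a fit of only the 2 groups compared (0.0549).

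On the LFD, Il1b was 1.29, 0.360, 0.715, 0.573 and 0.690 CPM in WT and 1.55, 1.79, 2.10, 0.846 and 1.07 CPM in Adn-Lpin1-/-, with mouse 1 of WT LFD above mice 4 and 5 of Adn-Lpin1-/- LFD. The log2 difference was 1.03 (SE 0.45, adjusted p = 0.130 from edgeR's test; exact permutation p = 0.0317). Tnf had 1 to 13 reads per WT mouse and 0 to 15 per Adn-Lpin1-/- mouse on the LFD, and 2 to 9 and 12 to 73 on the HFD. Every Adn-Lpin1-/- HFD mouse had more reads than any WT HFD mouse, but in CPM mouse 3, at 0.141, fell under 2 WT HFD mice. With no limit on low counts, the HFD difference of Tnf was 2.21 (SE 0.71, adjusted p = 0.0620 from edgeR's test over 28454 genes; exact permutation p = 0.0238), and the LFD difference was 0.34 (adjusted p = 0.910).

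Spp1 and Lpl, secreted products that hepatic cells other than macrophages also make, were not called for genotype. Spp1 was 28.5 ± 9.82 CPM in WT and 48.1 ± 17.3 in Adn-Lpin1-/- mice on the LFD, and 21.02 ± 8.87 and 33.2 ± 10.7 on the HFD. Its range was wide inside each group, from 26.7 to 68.4 CPM in Adn-Lpin1-/- LFD and from 8.12 to 29.2 in WT HFD, and the genotypes overlapped on both diets. The log2 fold change was 0.75 on the LFD (SE 0.32, adjusted p = 0.127) and 0.66 on the HFD (SE 0.32, adjusted p = 0.160), both from edgeR's test.

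Lpl was 19.02, 20.5, 12.1, 17.5 and 18.3 CPM in WT LFD mice 1 to 5 and 16.9, 16.3, 13.4, 10.7 and 15.3 CPM in Adn-Lpin1-/- LFD. On the HFD it was 8.08, 10.5, 8.20, 8.33 and 16.1 CPM in WT and 14.9, 18.5, 11.8, 9.91 and 16.4 CPM in Adn-Lpin1-/-. Mice 1, 3 and 4 of WT HFD were lower than any mouse of the other groups, and mouse 5 of WT HFD was higher than 3 of the 5 Adn-Lpin1-/- HFD mice. The genotype difference was -0.27 on the LFD (SE 0.20, adjusted p = 0.391) and 0.48 on the HFD (SE 0.20, adjusted p = 0.0968), both from edgeR's test. Lpl was called on the HFD with WT HFD mouse 5 removed (log2 fold change 0.69, adjusted p = 0.0147) and with Adn-Lpin1-/- HFD mouse 4 removed (0.58, adjusted p = 0.0448). With voom and quality weights, the tool named in the study's methods, it was called as well (0.63, adjusted p = 0.0260).

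Cd9, the tetraspanin, fell on the HFD in both genotypes. It was 11.4, 16.8, 10.1, 12.7 and 14.03 CPM in WT LFD mice 1 to 5 and 8.68, 9.66, 6.29, 8.93 and 9.84 CPM in WT HFD. In Adn-Lpin1-/- it was 17.4, 16.5, 20.2, 14.3 and 16.4 CPM on the LFD and 7.99, 8.34, 11.4, 9.15 and 8.34 CPM on the HFD. In both genotypes every HFD mouse was below every LFD mouse. Cd9 was the 1 gene of the 9 called for diet in WT mice, where 1.1% of all tested genes were called and 0.674% were called lower, and also in Adn-Lpin1-/- mice, where 2.46% were called and 1.26% were called lower. It was the 1 gene without overlap in each genotype, where 2.11% and 2.04% of all genes were lower without overlap.

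Between the diets, Cd9 fell by 0.91 on the log2 scale in Adn-Lpin1-/- mice (SE 0.14, adjusted p = 0.00166 from edgeR's test) and by 0.59 in WT mice (SE 0.14, adjusted p = 0.0474). The call in Adn-Lpin1-/- mice was kept in each fit that left out a mouse. The call in WT mice was near the threshold: of the 20 such fits it was kept only where the mouse removed was number 3 of either LFD group, number 5 of WT HFD or number 3 of Adn-Lpin1-/- HFD, with log2 values between -0.63 and -0.47 and adjusted p between 0.0509 and 0.136 in the other 16 (edgeR's test). For genotype, Cd9 differed by 0.38 on the LFD (SE 0.14, adjusted p = 0.0740) and by 0.06 on the HFD (SE 0.14, adjusted p = 0.796), both from edgeR's test. It was called on the LFD without mouse 2 of WT LFD (0.49, adjusted p = 0.0277) and with voom and quality weights (0.41, adjusted p = 0.0475).

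No other gene of the 9 was called for diet. Lpl came nearest, with a log2 fold change of -0.77 in WT mice (SE 0.20, adjusted p = 0.0642 from edgeR's test; exact permutation p = 0.0159), and of -0.02 (SE 0.20) in Adn-Lpin1-/- mice. The diet difference of Lpl in WT mice was called by DESeq2 (adjusted p = 0.0105), by voom with quality weights (0.00723), and by edgeR without mouse 3 of WT LFD (0.0429) or mouse 5 of WT HFD (0.0136). The log2 diet difference of Cd68 was 0.21 in WT and 0.45 in Adn-Lpin1-/- mice, with adjusted p of 0.653 and 0.257 from edgeR's test. The median over the 9 genes was -0.34 in WT and 0.17 in Adn-Lpin1-/- mice. For Gpnmb, Trem2, Il1b and Tyrobp, the adjusted p for diet was between 0.445 and 0.936 in both genotypes (edgeR's test).

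Whether the genotype effect differed between the diets was tested by its difference, HFD minus LFD. None of the 9 genes was called, as was the case for all 13052 genes (0 called, 0% of genes), where edgeR's test gave 7.19% of genes an unadjusted p under 0.05 and DESeq2 called 28. The difference was largest in proportion to its error for Lpl, at 0.75 (SE 0.28, unadjusted p = 0.0147, adjusted p = 0.588 from edgeR's test), with a genotype difference that was negative on the LFD and positive on the HFD. It was 0.59 for Lgals3 (SE 0.31, adjusted p = 0.737) and 0.84 for Gpnmb (SE 1.07, adjusted p = 0.919). The larger count of called genes on the HFD was therefore not shown to be a difference between the diets.

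**Figure D2:**
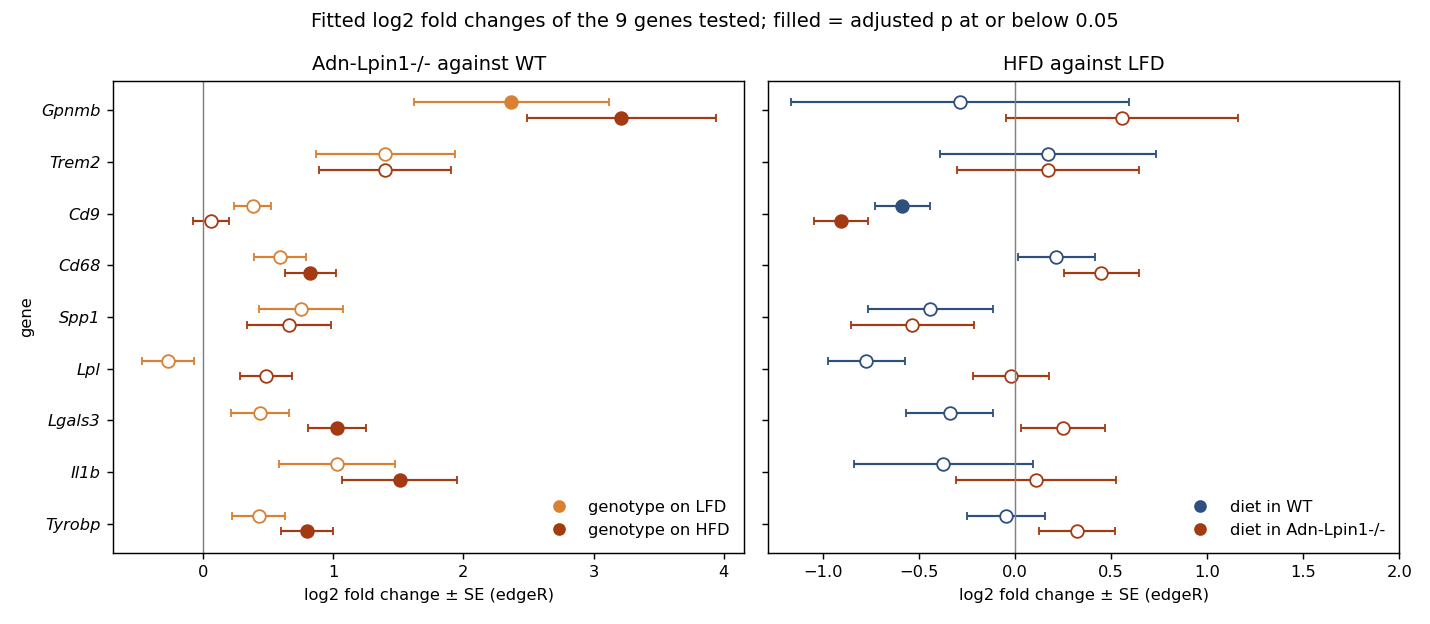
Log2 fold change ± SE from edgeR (horizontal axes) of the 9 genes tested (vertical axis), for Adn-Lpin1-/- against WT on each diet (left) and HFD against LFD in each genotype (right). Filled points were called at an adjusted p at or below 0.05: 1 gene on the LFD and 5 on the HFD for genotype, all to the right of 0, and Cd9 in both genotypes for diet, to the left of 0.

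Markers of macrophages as a whole were also compared between the genotypes. Beside the counts below, 6.27% of all tested genes were called higher on the LFD (14.4% in either direction) and 9.87% on the HFD (18.6%). Of 12 general macrophage genes, which include Adgre1 (a surface antigen of macrophages) and Csf1r (the receptor for the macrophage growth factor), 0 were called on the LFD by edgeR's test (1 had an unadjusted p under 0.05 and DESeq2 called 1) and 6 were called higher on the HFD. Their summed level was 167 to 281 CPM in WT and 209 to 390.1 in Adn-Lpin1-/- mice on the LFD, and 192 to 247 and 234 to 560.4 on the HFD, and none of the 12 was at 0 in any group. With mouse 2 of Adn-Lpin1-/- HFD left out, 2 general macrophage genes were called on the HFD in place of 6. Of 8 resident Kupffer cell genes, which include Clec4f and Timd4, 0 were called on the LFD (0 had an unadjusted p under 0.05 and DESeq2 called 0) and 5 were called higher on the HFD. With the same mouse left out, 1 Kupffer cell gene was called on the HFD. The 8 summed to 303 to 592 CPM in WT and 380 to 469 in Adn-Lpin1-/- mice on the LFD. On the HFD their sum was 367 to 526 CPM in WT and 340 to 557 in Adn-Lpin1-/- mice. C6 held 63.0% of this summed level. Without C6, the other 7 summed to 100.4 to 181 CPM in WT and 120.4 to 228 in Adn-Lpin1-/- mice on the LFD, and 115 to 150.3 and 155 to 333 on the HFD. The part of macrophage content in the differences above was not tested.

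The level of each gene was also expressed per 1000 CPM of the 12 general macrophage genes in the same mouse, as a description with no test. By this measure Gpnmb remained 4.54 times as high in Adn-Lpin1-/- as in WT mice on the LFD and 5.66 times on the HFD. Trem2 was 2.11 and 1.65 times as high, and Il1b 1.77 and 1.80 times. Tyrobp was 1.17 and 1.14 times as high. For these 4 genes the mice of the genotypes overlapped on both diets by this measure.

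Cd68 per macrophage sum was 29.9 ± 0.494 in WT LFD and 38.5 ± 1.46 in Adn-Lpin1-/- LFD, with no overlap of the mice, and 36.2 ± 3.79 against 42.2 ± 3.84 on the HFD, where the mice overlapped. Lgals3 was 13.3 ± 0.514 in WT against 17.8 ± 1.56 in Adn-Lpin1-/- mice on the HFD with no overlap, and overlapped on the LFD. Spp1 was 1.34 times as high on the LFD and 1.07 times on the HFD. Cd9 was 1.14 and 0.768 times as high, and Lpl 0.732 and 0.955 times. Tnf, at few reads, was 0.989 and 2.91 times as high.

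**Figure D3:**
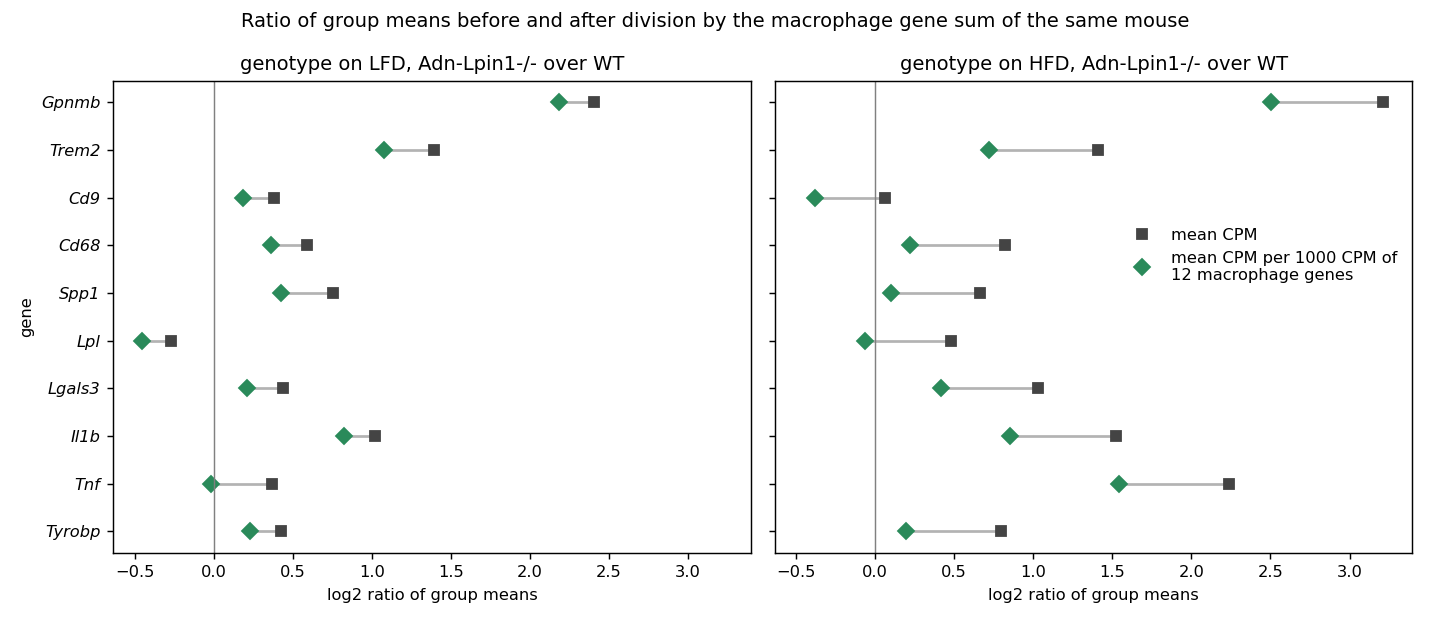
Log2 ratio of the group means, Adn-Lpin1-/- over WT (horizontal axes), for the 10 genes (vertical axis) on the LFD (left) and the HFD (right), as mean CPM (squares) and as the mean of each gene's CPM per 1000 CPM of 12 macrophage genes in the same mouse (diamonds). After division Gpnmb was 4.54 and 5.66 times as high in Adn-Lpin1-/- mice, and each diamond lies to the left of its square since the macrophage genes were themselves higher in Adn-Lpin1-/- mice.

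Other cell types of the liver were checked by their markers, again between the genotypes. These counts too stand beside the shares over all tested genes, 6.27% called higher on the LFD (14.4% in either direction) and 9.87% on the HFD (18.6%). Hepatocyte genes dominated every library, with Alb between 2548204 and 5121549 reads per mouse, and 4 of 6 were called lower in Adn-Lpin1-/- on the HFD. Of the stellate cell genes, which include Lrat and Des, 8 were tested between the genotypes. In Adn-Lpin1-/- mice, 5 of these were called higher than in WT under the LFD and 4 under the HFD. The list summed to 86.8 to 169 CPM in WT and 179.8 to 406 in Adn-Lpin1-/- mice on the LFD, and 151 to 223 and 183 to 420.0 on the HFD. Of the sinusoidal endothelial genes, which include Stab1 and Stab2, 3 of 6 were called higher on the LFD and 4 on the HFD, with sums of 99.2 to 148, 143 to 223, 109 to 157 and 183 to 196 CPM in the same order. With 1 mouse left out, as few as 1 hepatocyte, 0 stellate and 2 endothelial genes were called on the HFD. Without Fn1, which held 99.2% of the sum, the other 6 monocyte genes, among them Ly6c2 and Ccr2, summed to 8.96 to 15.8 CPM in WT and 12.7 to 20.4 in Adn-Lpin1-/- mice on the LFD, and 11.8 to 14.1 and 11.7 to 31.9 on the HFD. Of 5 tested monocyte genes, 1 was called higher on each diet. Neutrophil genes summed to at most 8.60 CPM in any mouse, with S100a8 at 2 to 46 reads. Lymphocyte genes summed to at most 11.8 CPM, cholangiocyte genes to at most 14.4 and mesothelial genes to at most 9.14. Of the 2 lymphocyte, 4 cholangiocyte and 2 mesothelial genes tested, edgeR's test called 0 for genotype on either diet, with 5 of these 16 tests at an unadjusted p under 0.05 and 2 calls by DESeq2. Csf3r, the 1 neutrophil gene tested, was called higher on the HFD. Of the defining adipocyte markers, Lep was at 0 to 4 reads per mouse. Adipoq stood apart in mouse 1 of WT LFD (168 reads, 4.32 CPM), was 0.746 CPM in mouse 2 of WT HFD and was at most 0.154 CPM in the other 18 mice. Without mouse 1 of WT LFD, Gpnmb was not called on the LFD (adjusted p = 0.0860 from edgeR's test) and Cd9 was not called for diet in WT mice (0.0692). Cfd, 1 of the 2 adipocyte genes tested, was called higher in Adn-Lpin1-/- mice on both diets. Its call on the LFD was lost in 6 of the fits that left out a mouse and in 3 other settings. The part of these cell types in the differences above was not tested.

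The mice of a group differed in these genes together. Mouse 2 of Adn-Lpin1-/- HFD was the highest of its group for 6 of the 10 genes (Cd68, Lpl, Lgals3, Il1b, Tnf and Tyrobp), and it was also the highest of all 20 mice in the summed macrophage genes, at 560.4 CPM. Mouse 1 of that group was the highest for Gpnmb, Trem2 and Spp1. Mouse 5 was the highest of Adn-Lpin1-/- LFD for 4 genes. In WT LFD, mouse 3 was the lowest for Gpnmb, Cd9, Cd68, Lpl, Lgals3 and Tyrobp. Without mouse 2 of Adn-Lpin1-/- HFD, Gpnmb, Cd68, Lgals3 and Tyrobp were still called on the HFD. Over all tested genes, the count called for genotype on the HFD fell from 2434 to 1477 without this mouse.

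**Figure D4:**
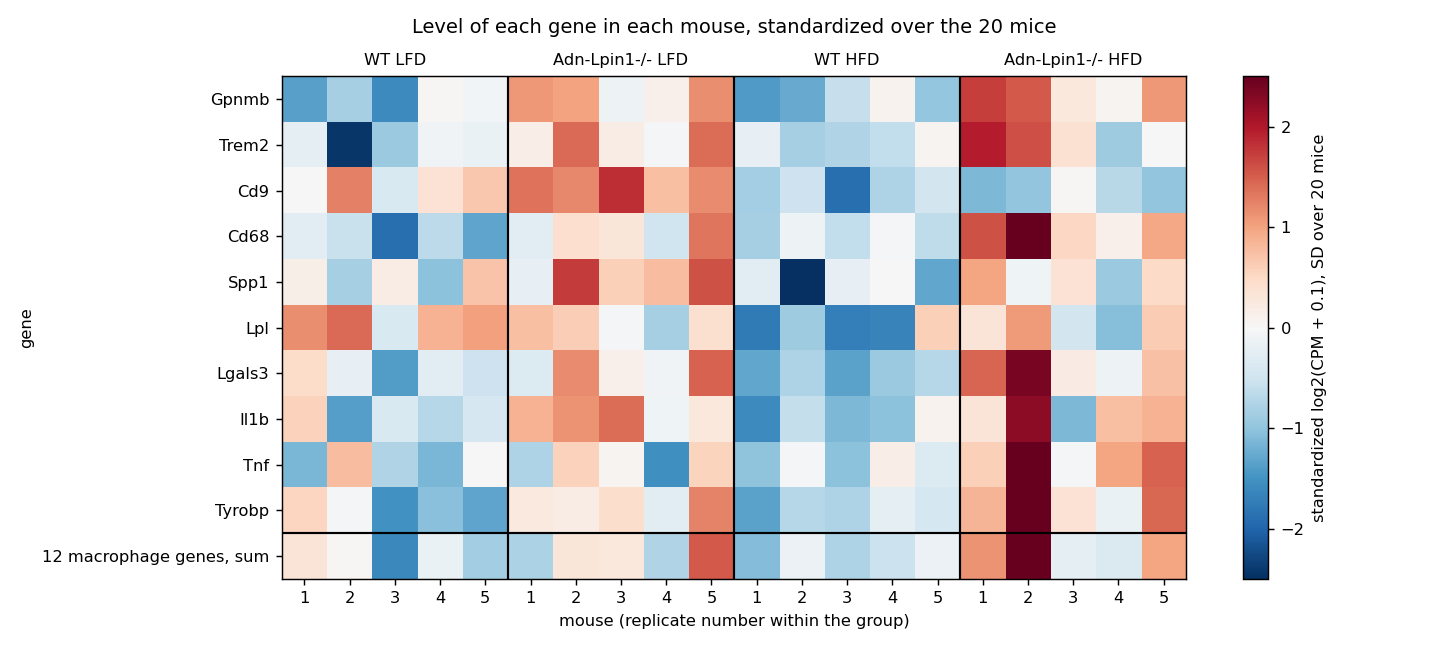
Log2(CPM + 0.1) of the 10 genes and of the sum of 12 macrophage genes (vertical axis) in each of the 20 mice (horizontal axis, replicate number within the group), standardized for each row over the 20 mice (color, in SD). Mouse 2 of Adn-Lpin1-/- HFD is the darkest red for Cd68, Lgals3, Il1b, Tnf, Tyrobp and the macrophage sum, and the row of Cd9 is split by diet within each genotype.

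As a description over the 20 mice, which share 4 groups, the closest pairs among the 10 genes were Cd68 with Tyrobp (Pearson r = 0.92, Spearman ρ = 0.89; r = 0.86 with group means removed), Lgals3 with Tyrobp (0.88, 0.88 and 0.80) and Cd68 with Lgals3 (0.88, 0.81 and 0.93). The median r over the 45 pairs was 0.52, and 0.37 with group means removed. Cd9 had the lowest median r with the other 9 genes, at 0.11. Spp1 followed with 0.31 and Lpl with 0.32. With group means removed, the median r was -0.017 for Cd9 and 0.066 for Spp1, while that of Lpl was 0.49, above those of Gpnmb (0.36) and Trem2 (0.38). These points share the library and its depth.

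Of all other tested genes, those whose pattern over the 20 mice was nearest to the mean of the 9 tested genes were Pitpnm1 (r = 0.94, ρ = 0.92), Ano6 (r = 0.92, ρ = 0.91), Arhgef2 (r = 0.90, ρ = 0.88), Oasl2 (r = 0.90, ρ = 0.85) and Prkd2 (r = 0.89, ρ = 0.83). Nearest to single genes were Axl, a receptor for apoptotic cells, for Cd68 (r = 0.97), C1qc, a complement C1q chain and 1 of the 12 macrophage genes, for Tyrobp (r = 0.95), and Dock10 for Lgals3 (r = 0.94). Lamc3, a laminin chain, was nearest to Spp1 (r = 0.92). Pnpla5, a patatin-like lipase, was nearest to Cd9 (r = 0.92, and 0.60 with group means removed). Acot9 was nearest to Trem2 (r = 0.89), Rogdi to Gpnmb (r = 0.89), H2-Q4 to Il1b (r = 0.84) and Gpr137b-ps to Lpl (r = 0.80). H2-Q4 belongs to a family of near-identical class I genes and Gpr137b-ps is a pseudogene, so that the reads of both may be shared with their copies.

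The wider set of lipid-associated macrophage genes, 27 of which 25 were tested, held 5 genes called higher and 1 called lower in Adn-Lpin1-/- on the LFD, and 11 higher and 3 lower on the HFD, with a median log2 fold change of 0.30 and 0.44. With mouse 2 of Adn-Lpin1-/- HFD left out, 7 of this set were called on the HFD in place of 14. Over all tested genes, 6.27% were called higher on the LFD (14.4% in either direction) and 9.87% on the HFD (18.6%), and the counts of this list and the next ones stand beside these shares. Lgals1, which encodes galectin 1, was 2.14 higher on the log2 scale on the LFD (SE 0.44, adjusted p = 0.00335 from edgeR's test), and Cd63, a lysosomal tetraspanin, was 1.17 higher (SE 0.27, adjusted p = 0.00719). On the HFD, Mmp12, the macrophage elastase, was 2.65 higher in Adn-Lpin1-/- mice (SE 0.62, adjusted p = 0.00725 from edgeR's test). Atp6v0d2, a subunit of the vacuolar proton pump, was 1.16 lower in them (SE 0.25, adjusted p = 0.00417 from edgeR's test). Fabp5, a fatty acid binding protein, fell on the HFD by 3.17 in WT mice (SE 0.52, adjusted p = 0.00959) and by 4.48 in Adn-Lpin1-/- mice (SE 0.56, adjusted p = 0.000173). Npc2, a lysosomal cholesterol carrier, fell by 0.30 in Adn-Lpin1-/- mice (adjusted p = 0.0480).

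Of 12 tested genes of TREM2 and TYROBP signaling, 1 was called for genotype among LFD mice and 6 among HFD mice. The median log2 fold changes of Adn-Lpin1-/- against WT were 0.27 and 0.70. The difference of the genotype effects between the diets was called for none. On the LFD, Ptpn6, which encodes the phosphatase SHP-1, was called (0.20, SE 0.07, adjusted p = 0.0488 from edgeR's test), while the next in order there, Fcer1g, an adaptor like TYROBP, was not (0.44, adjusted p = 0.165). On the HFD the 6 called genes were all higher: Syk, the kinase that docks on TYROBP, Plcg2, the lipase downstream of it, Inpp5d, Vav1, Fcer1g and Sirpa. With mouse 2 of Adn-Lpin1-/- HFD left out, 1 gene of this list was called on the HFD. Inpp5d, which encodes the inositol phosphatase SHIP1, was 0.84 (SE 0.22, adjusted p = 0.0130) and Vav1, a guanine nucleotide exchange factor, was 0.77 (SE 0.20, adjusted p = 0.0136). None of the 12 was called for diet by edgeR's test (in WT mice 1 had an unadjusted p under 0.05 and DESeq2 called 0; in Adn-Lpin1-/- mice 4 had an unadjusted p under 0.05 and DESeq2 called 1).

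Around IL-1β, 1 of 14 tested genes was called higher and 1 lower on each diet, with median log2 fold changes of 0.03 (LFD) and 0.17 (HFD). This count is no higher than the share over all tested genes called for genotype (14.4% on the LFD, 18.6% on the HFD), and the genes are given as single values. Il1rap, the accessory chain of the IL-1 receptor, was lower in Adn-Lpin1-/- mice, by 0.51 on the LFD (SE 0.10, adjusted p = 0.00217 from edgeR's test) and by 0.37 on the HFD (SE 0.10, adjusted p = 0.0155). Irak1, a kinase of the receptor complex, was higher on the LFD (0.22, adjusted p = 0.0124). Nlrp3, the inflammasome sensor that leads to cleavage of IL-1β, was higher on the HFD (1.26, SE 0.31, adjusted p = 0.00955). Around TNF, the median was 0.10 on the LFD and 0.11 on the HFD. Of 14 genes, 0 were called on the LFD by edgeR's test, 5 had an unadjusted p under 0.05, DESeq2 called 0 and voom with quality weights called 2, and Nfkb1 (0.17, adjusted p = 0.0859) and Nfkbia (-0.36, adjusted p = 0.0894) came nearest. On the HFD 2 were higher and 1 was lower, among them the adhesion molecule gene Vcam1 (0.73, adjusted p = 0.0392) and Adam17, whose protease sheds TNF (0.22, adjusted p = 0.0437).

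Of 12 partners of lipoprotein lipase, 1 was called higher and 1 lower on each diet, with medians of -0.04 (LFD) and -0.06 (HFD). This count is also near the share over all tested genes, and the genes are given as single values. On the LFD these were Apoc2, the activator of the enzyme (0.41, adjusted p = 0.0469 from edgeR's test), and Lipc, hepatic lipase (-0.40, adjusted p = 0.0189). On the HFD the higher one was Gpihbp1, which carries the enzyme to the capillary lumen (0.59, adjusted p = 0.0429). Of 7 osteopontin receptor chains, with medians of 0.08 and 0.18, Itgav was lower on the LFD (-0.44, adjusted p = 0.0162) and the HFD (-0.54, adjusted p = 0.00421). Itga9 was higher on the HFD (0.68, adjusted p = 0.0411), while its LFD value was 0.40 (adjusted p = 0.260).

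Among 10 other tetraspanins, the family of CD9, 1 was called higher and 2 lower on the LFD and 3 higher and 0 lower on the HFD, with medians of 0.18 and 0.09. This list does not hold Cd63, the tetraspanin given above with the wider set of lipid-associated macrophage genes. Tspan4 (-0.48, adjusted p = 0.0216 from edgeR's test) and Tspan33 (-0.57, adjusted p = 0.0231) were the lower ones on the LFD, and Cd81 (0.38, adjusted p = 0.0130) and Cd37 (0.53, adjusted p = 0.0422) were 2 of the higher ones on the HFD. For diet, Tspan31 was the 1 of the 10 called, in Adn-Lpin1-/- mice (-0.29, adjusted p = 0.0304), and none was called in WT mice. Of 5 tested genes of the galectin list, with medians of 0.19 and 0.34, Lgals1 was also called on the HFD (1.68, SE 0.43, adjusted p = 0.0117), and Lgals3bp, a ligand of galectin 3, was called on the LFD (0.47, adjusted p = 0.0434) and was 0.36 on the HFD (adjusted p = 0.102). Of the 30 calls that these lists gave for the genes chosen by the naming rule, 12 were kept in all 11 other settings and whichever of the 20 mice was removed. The other 18 were lost in at least 1 of them. Among the weakest were Ptpn6, Adam17 and Npc2 (each lost for 14 of the 20 mice removed), Apoc2 (13), Lgals3bp, Gpihbp1 and Cd37 (10), Itga9 (9), Vcam1 and Tspan31 (6), and Tspan4 and Tspan33 (5).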

How the data were processed

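Liver RNA was sequenced from 20 single mice, 5 in each of 4 groups, and from 4 pools of the same RNA. Per the study's methods and the submitters' processing notes, the authors aligned reads with STAR 2.5.1a to GRCm38 and counted them per Ensembl gene with featureCounts 1.4.6-p5. The deposited files hold a raw count, CPM and RPKM for each gene, the last 2 computed by the authors. Only the raw counts were used here. CPM and RPKM printed in the text were recomputed from the counts on TMM-scaled library sizes.

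After 355 ribosomal RNA genes had been left out (0.265% to 0.465% of counts), a gene was kept if it exceeded 1 CPM in 4 or more of the 20 libraries (the study's rule of the smallest group size minus 1, for 5 mice a group). Trem2 did so in exactly 4 and would not be tested at 5, the number the rule gives if the pools count as libraries of their groups. The 13052 genes were fitted in 1 model with the 4 group means by edgeR 4.0.16 (quasi-likelihood test, R 4.3.3), and p-values were adjusted by the Benjamini-Hochberg method over all of them. The study's methods name voom with quality weights, which was run as an alternative with limma 3.58.1, as was DESeq2 1.42.0. No pool entered the main fit, as each holds RNA already sequenced mouse by mouse. The pools entered only the alternative fits that are named as with pools. The scripts were tested on simulated data. Exact permutation tests used numpy 2.4.6 under Python 3.11.15, and Spearman correlations used scipy 1.17.1. The labels number the libraries of each group from 1 to 5 and mark the 4 pools as pooled. That each numbered library is 1 mouse was read from this numbering. Removing a trend of fold change with GC content was an alternative added after the data had been seen.

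The members, gene lists and markers were chosen with earlier results of these data known. The named genes are the 10 members, the 2 genes of smallest p for genotype on each diet from each list, each list gene called for diet, and the genes nearest in pattern by Pearson's r, while other genes named were chosen after their values were seen. Counts were made without a stated strand setting, so that reads of overlapping genes cannot be told apart. The total count per mouse, 36260187 to 81072794, limits the precision for genes with few reads. The values of 1 gene of the lipoprotein lipase partner list are not reported here, although its list's counts and medians include it.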

Additional observations from a re-analysis of the deposited data

How the results depend on the processing

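On the LFD, where 1 gene was called for genotype, DESeq2's Wald test called 3, voom with quality weights 2, the fit with pools, which count the same RNA again, 5, voom with pools 8 and the replicate block 0, and 0 to 2 were called when 1 mouse was left out. On the HFD, where 5 were called, voom with pools called 8, and 4 to 7 were called when 1 mouse was left out. For diet in WT, where 1 was called, DESeq2, voom, pools and voom with pools each called 2, while no limit on low counts, the filterByExpr limit and a fit of only the 2 groups each called 0, and 0 to 2 were called when 1 mouse was left out. For diet in Adn-Lpin1-/-, voom with pools called 2 in place of 1. For the difference of the genotype effects, voom with pools called 1 in place of 0, namely Lpl.

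Same-numbered mice of different groups did not deviate together (30 pairs, r from -0.42 to 0.28, 6 over 0.1; 5 of 20 mice correlated best with their own number), so no pairing by number was seen. A pairing with little effect on expression would not be seen this way. With the replicate block, Gpnmb lost its call on the LFD (adjusted p = 0.0572 from edgeR's test) and Cd9 in WT for diet (0.0934), while Lpl was called on the HFD (0.0333) and for diet in WT (0.0271).

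Over all tested genes, 1877 were called for genotype on the LFD against 3008 with pools, 4163 with voom and pools and 1208 without mouse 3 of WT LFD. On the HFD 2434 were called against 3760, 4740 and, without mouse 2 of Adn-Lpin1-/- HFD, 1477. For diet in WT, 144 were called against 400 with DESeq2, 670 with voom, 687 with pools, 1938 with voom and pools, 72 in a fit of 2 groups, 90 with the replicate block and 55 to 289 with 1 mouse left out. For diet in Adn-Lpin1-/-, 321 were called against 577 with DESeq2, 958 with pools, 2342 with voom and pools, 161 in a fit of 2 groups and 123 to 383 with 1 mouse left out. For the difference of the genotype effects, 0 were called against 28 with DESeq2, 4 with pools and 189 with voom and pools.

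Some values that no fit called changed sign, among them values not near 0 (Gpnmb for diet in WT, -0.28, and Il1b for the difference of the genotype effects, 0.48). For diet in WT, these were Gpnmb with voom (0.28) and Trem2 with pools (-0.049) or voom and pools (-0.036). For diet in Adn-Lpin1-/-, they were Trem2 with voom and pools (-0.22), Lpl with voom (0.011), pools (0.036) and voom with pools (0.16), and Il1b with voom (-0.21). The difference of the genotype effects of Trem2 was 0.00454 with DESeq2, 0.11 with pools and 0.050 on counts thinned to the smallest total. With 1 mouse left out, log2 values ranged from -0.045 to 0.10 for Cd9 on the HFD, and for diet in WT from -1.14 to 0.21 for Gpnmb, -0.13 to 0.35 for Trem2 and -0.13 to 0.10 for Tyrobp. For diet in Adn-Lpin1-/- they ranged from -0.13 to 0.077 for Lpl and -0.39 to 0.36 for Il1b, and for the difference of the genotype effects from -0.19 to 0.29 for Trem2, -0.30 to 0.068 for Spp1 and -0.016 to 0.76 for Il1b. The cause of these changes was not tested. Depth limits Gpnmb, Trem2, Il1b and Tnf, which had 0 to 232 reads per mouse.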

Other observations

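The RNA pooled from the 5 mice of each group was sequenced as well, and these 4 libraries repeat the same mice. For the 10 genes in the 4 groups, 38 of 40 pool values fell between the lowest and highest mouse of their group. The 2 exceptions were Trem2 and Lpl in WT LFD.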
